A study of Mus musculus with 12 samples.

Results

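The endoplasmic reticulum (ER) chaperones and stress genes are 35 genes, chosen by symbol among the 27412 Ensembl gene IDs of the deposited table. They encode the folding helpers of the ER, the machinery that removes misfolded proteins, the sensors of the unfolded protein response and the factors those sensors act through. The genes were picked with the genotype comparison of these same samples already known, so their counts and medians describe the group and give no independent support for a direction. RNA of a thin outer slice of kidney cortex was sequenced from untreated male C57BL/6 mice, some γ-HIF2αM3 TG+ (HIF2aM3) and some wild type (WT). The series title names the transgene GGT-HIF2aM3; the promoter of γ-glutamyl transferase (GGT) is active in the proximal tubule, and HIF2α, which Epas1 encodes, switches on genes when oxygen is low. Each genotype had 3 animals, namely 17-51, 17-53 and 17-56 for HIF2aM3 and 1, 2 and 3 for WT, and both kidneys of each animal gave a library, 12 in all. All HIF2aM3 names share the prefix 17, and the labels do not say whether it marks 1 transgenic line. If it does, insertion site and line cannot be told apart from the transgene. Age and litter are not stated in the labels.

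Proteins that enter the secretory pathway fold in the ER with the help of chaperones, of lectins that bind their sugars and of enzymes that form disulfide bonds. When unfolded proteins build up, ATF6 is cut to free a transcription factor, IRE1α (Ern1) splices the Xbp1 mRNA, and PERK (Eif2ak3) slows translation and lets ATF4 accumulate. ATF6 mainly raises chaperone genes, spliced XBP1 raises degradation and secretion genes, and ATF4 raises amino acid and stress genes such as Ddit3. Cleavage, splicing and phosphorylation were not measured here, since the table holds 1 count per gene and library.

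Several chaperone promoters carry the ER stress response element (ERSE), the site of ATF6 and its partner NF-Y. It was searched as CCAAT and CCACG with any 9 bases between them, on both strands in RefSeq windows of build GRCm38.p6, from 250 bases before to 50 bases after an annotated start. Windows were found for 31 of the 35 genes, all but Atf6, Derl1, Hyou1 and Manf. Hspa5 and Creld2 are shown because their levels fell in HIF2aM3 cortex and they hold the element. Calr and Canx were added after their values were seen, as abundant genes that hold the element and whose difference did not pass the test. Capitals mark the element, read on the opposite strand in Creld2 and Calr, and the bases run 5′ to 3′ on the gene's strand.
Hspa5: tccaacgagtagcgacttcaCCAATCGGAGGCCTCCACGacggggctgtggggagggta
Creld2: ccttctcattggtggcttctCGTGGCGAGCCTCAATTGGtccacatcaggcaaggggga
Calr: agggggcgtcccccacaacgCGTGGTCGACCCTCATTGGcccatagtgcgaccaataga
Canx: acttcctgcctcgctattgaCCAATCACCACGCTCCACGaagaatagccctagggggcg
The stretches lie at chr2:34772005-34772063 (+ strand) for Hspa5, chr15:88819500-88819558 (+) for Creld2, chr8:84847055-84847113 (-) for Calr and chr11:50325780-50325838 (-) for Canx. The first capital of Hspa5 stands 65 bases before the start, that of Creld2 126, that of Calr 162 and that of Canx 145.

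The libraries held 24032148 to 43499743 counts, apart from 1 shallow library with 4161829, from kidney 2 of 17-51. Epas1 had 277.7, 276.0 and 248.0 CPM (counts scaled to an equal library total) in HIF2aM3 animals, against 196.9, 237.6 and 176.9 CPM in WT animals. Its animals did not overlap, and its log2 fold change of 0.39 ± 0.11 (SE) did not pass the test (edgeR adjusted p = 0.0881). Slc34a1, a phosphate transporter of the proximal tubule, had 5692.1 to 6806.0 CPM in HIF2aM3 and 7115.2 to 7787.7 CPM in WT animals, so both genotypes carried the RNA of that tubule. The summed CPM of 8 proximal tubule markers was 11873.6 to 13353.0 in HIF2aM3 and 13586.1 to 14701.3 in WT animals, without overlap. Without Slc34a1 it was 6181.5 to 6547.0 in HIF2aM3 and 6385.8 to 7025.0 in WT animals, which overlapped. Of the 8, 3 had log2 fold changes above 0, and Slc5a12 rose (0.49 ± 0.10, edgeR adjusted p = 0.0483) while Slc22a6 fell (-0.50 ± 0.11, edgeR adjusted p = 0.0483). The part of this cell type in the results was not tested. In such bulk RNA, fewer cells of a type and less RNA per cell cannot be told apart. Here and below, the CPM of an animal are of both its kidneys summed and scaled by TMM factors, and fold changes are HIF2aM3 over WT. A gene is said to have risen or fallen where the edgeR adjusted p over all genes tested was below 0.05.

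All 35 genes had enough counts to be tested. Creld2, Manf, Hyou1 and Hspa5 fell in HIF2aM3 cortex and Eif2ak3 rose, while the other 30 did not pass the test. Over all 19564 genes tested, 3.75% passed, 1.82% lower and 1.93% higher in HIF2aM3. The members' median log2 fold change was -0.08, against 0.00 over all genes. Below 0 were 24 members and above 0 were 11, beside 9598 and 9966 of all genes tested. The members' median moved to -0.12 without WT 2 and to -0.04 without WT 3. The animals of the genotypes did not overlap for 14 members, 10 lower and 4 higher in HIF2aM3. Over all genes tested 32.0% did not overlap, 16.5% lower and 15.5% higher. The calls depended on the animals used: 5 members passed with all 6 animals, 1 (Creld2) without 17-53 and 6 without WT 2. Without WT 1 there were 2, and without WT 3, 17-51 or 17-56 there were 3 each. Calls over all genes shifted in the same fits. They were 733 with all 6 animals, 11 without 17-53, 1549 without WT 2 and 42 to 196 without any other animal.

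**Figure D1:**
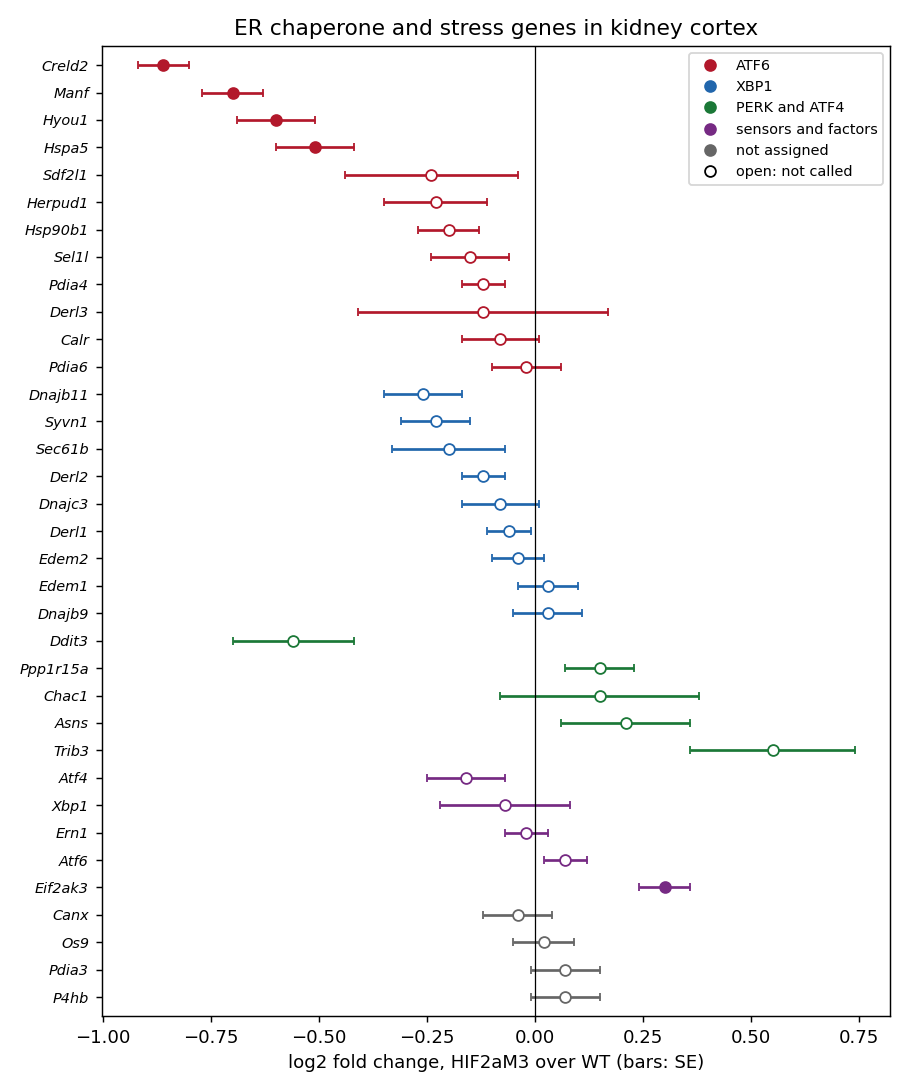
Log2 fold change (HIF2aM3 over WT, 3 animals each) of the 35 genes on the horizontal axis, one gene per row, with its SE as bars and colours for the branch a gene is usually assigned to; filled points passed the test. The 4 filled points below 0 run from -0.86 (Creld2) to -0.51 (Hspa5) and belong to the ATF6 list, and Eif2ak3 at 0.30 is the filled point above 0.

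The chaperones held all 4 falls. Creld2 (ENSMUSG00000023272), an ER protein that assists folding through disulfide exchange and is partly secreted, had 17.9, 18.8 and 16.7 CPM in HIF2aM3 animals, against 32.7, 33.3 and 31.2 CPM in WT animals. The highest HIF2aM3 value lay far below the lowest WT value, and single kidneys ran from 16.1 to 19.6 CPM in HIF2aM3 and from 30.4 to 33.5 CPM in WT. Its log2 fold change was -0.86 ± 0.06 (SE, edgeR adjusted p = 0.00459), a level of 0.55 times that of WT. Creld2 was the only member whose call held without any 1 animal, with adjusted p from 0.00542 to 0.0275, and it passed in all 30 alternative settings.

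Manf (ENSMUSG00000032575), an ER-resident factor that binds BiP and is secreted under stress, had 35.4, 35.8 and 31.3 CPM in HIF2aM3 animals, against 56.7, 57.3 and 53.0 CPM in WT animals. All HIF2aM3 values were below all WT values, and within each genotype 17-56 and WT 3 were lowest. The log2 fold change was -0.70 ± 0.07 (edgeR adjusted p = 0.00911). Without 17-53 the log2 fold change was -0.74 and the adjusted p 0.0605. Manf shares exon bases with 3 genes in a GENCODE M21 annotation, and the sources used here do not say whether the counting used strand. Of its 3524 exon bases, 146 overlap Dcaf1 and 166 overlap 4930524O07Rik, both on the opposite strand, and 14 overlap Rbm15b on the same strand. These partners had log2 fold changes of 0.08, 0.05 and 0.05 and none of them passed the test. Creld2, Hyou1, Hspa5 and Eif2ak3 overlap no other gene there.

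Hyou1 (ENSMUSG00000032115), which encodes GRP170, an exchange factor that resets BiP, had 105.9, 94.9 and 83.7 CPM in HIF2aM3 animals, against 139.6, 141.3 and 151.3 CPM in WT animals. The genotypes did not overlap, and 17-56 was again the lowest animal. Its log2 fold change was -0.60 ± 0.09 (edgeR adjusted p = 0.0232). The adjusted p was 0.055 without WT 1, 0.058 without WT 3 and 0.0969 without 17-53, with log2 fold changes from -0.64 to -0.57 in those fits.

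Hspa5 (ENSMUSG00000026864), which encodes BiP, the central ER chaperone that also holds the sensors inactive, had 450.9, 416.8 and 374.5 CPM in HIF2aM3 animals, against 559.1, 583.5 and 627.2 CPM in WT animals. All HIF2aM3 values were below all WT values, and the gaps between the HIF2aM3 animals exceeded the difference between the kidneys of any of them. The log2 fold change was -0.51 ± 0.09 (edgeR adjusted p = 0.0295), a level of 0.702 times that of WT. With 1 animal left out it passed only without WT 2 (adjusted p = 0.028). It was 0.0649 without WT 1, 0.0687 without WT 3, 0.0757 without 17-51, 0.121 without 17-53 and 0.0644 without 17-56, while the log2 fold change stayed between -0.58 and -0.44.

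The 4 falls were present in each kidney taken alone. With kidney 1 of each animal the log2 fold changes were -0.88 for Creld2, -0.68 for Manf, -0.60 for Hyou1 and -0.48 for Hspa5, and with kidney 2 they were -0.83, -0.73, -0.62 and -0.54 in the same order. All 8 passed the edgeR test. Leaving out any 1 library kept all 4 calls, the shallow library included.

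**Figure D2:**
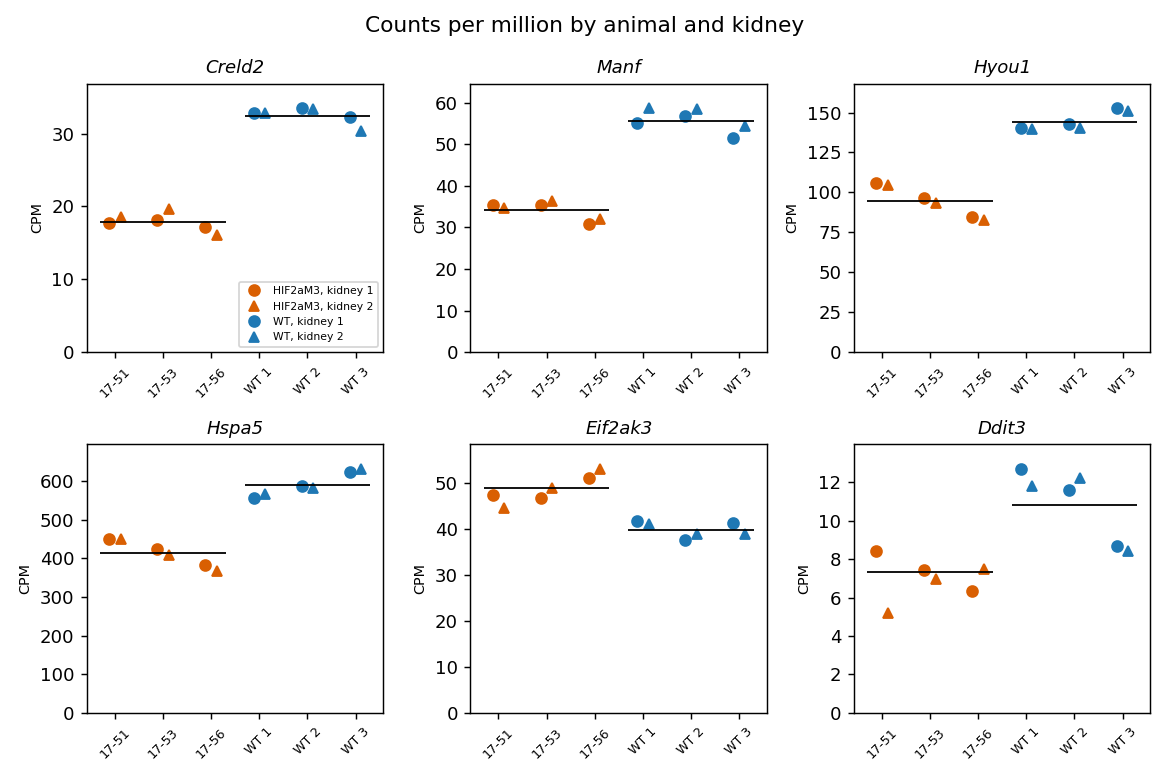
CPM of 6 genes in each kidney (circles kidney 1, triangles kidney 2) of the 3 HIF2aM3 animals (left, orange) and the 3 WT animals (right, blue), with the mean of each genotype's animals as a line and the axis starting at 0. Creld2 kidneys lie between 16.1 and 19.6 CPM in HIF2aM3 and between 30.4 and 33.5 CPM in WT, and Ddit3 shows 1 WT animal apart from the other WT animals.

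The other 5 chaperones did not pass the test. Hsp90b1, which encodes GRP94, had 427.2, 409.3 and 421.8 CPM in HIF2aM3 animals, against 474.0, 452.7 and 522.2 CPM in WT animals. These did not overlap, and the log2 fold change was -0.20 ± 0.07 (edgeR adjusted p = 0.134). Of its 4032 exon bases, Hsp90b1 shares 133 with Gm25745 and 84 with Gm15344, both on the same strand. Gm25745 had a log2 fold change of -0.33 ± 0.09 (edgeR adjusted p = 0.0782). That of Gm15344, -0.36 ± 0.07, passed the test (edgeR adjusted p = 0.0432). The reads of these genes may not be separable from those of Hsp90b1.

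Dnajb11, which encodes ERdj3, a co-chaperone of BiP, had 95.3, 90.5 and 97.3 CPM in HIF2aM3 animals, against 110.8, 100.7 and 126.7 CPM in WT animals. The groups did not overlap, the WT animals differed from each other by more than the HIF2aM3 animals did, and the log2 fold change was -0.26 ± 0.09 (edgeR adjusted p = 0.125). Without WT 2 it was -0.34 and passed (adjusted p = 0.0403). Sdf2l1, a partner of Dnajb11 in a chaperone complex, had 7.38 to 10.7 CPM in HIF2aM3 and 8.81 to 13.8 CPM in WT animals, overlapping, and a log2 fold change of -0.24 ± 0.20. The co-chaperones Dnajc3 (-0.08 ± 0.09) and Dnajb9 (0.03 ± 0.08) overlapped between genotypes. The median of the 9 chaperones was -0.26, with 8 below 0. For 6 of them the animals did not overlap, all lower in HIF2aM3, beside 16.5% lower without overlap over all genes tested.

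The folding genes with the highest levels did not pass the test. On the authors' RPKM, which divide by transcript length and so allow a comparison between genes, the disulfide isomerase P4hb was highest with 145.1 ± 7.35 in HIF2aM3 and 135.9 ± 8.19 in WT animals (SD, n = 3 each). Next came the lectin chaperones Calr (118.6 ± 2.94 in HIF2aM3, 122.5 ± 10.5 in WT) and Canx (107.2 ± 1.49 in HIF2aM3, 107.8 ± 7.35 in WT), which hold sugar-bearing proteins until they fold. Pdia3, an isomerase that works with both lectins, followed with 95.1 ± 2.94 in HIF2aM3 and 88.3 ± 7.01 in WT animals. In HIF2aM3 animals the ranges of mean ± SD did not overlap between neighbours in this order, while in WT animals they overlapped between P4hb and Calr and between Calr and Canx.

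P4hb had 631.6, 625.9 and 681.7 CPM in HIF2aM3 animals, against 620.8, 559.5 and 662.9 CPM in WT animals, overlapping, with a log2 fold change of 0.07 ± 0.08 (edgeR adjusted p = 0.613). It was the largest absolute fold change among the 4 genes assigned to no branch, ahead of Pdia3 (0.07), Canx (-0.04) and Os9 (0.02). The log2 fold changes of Calr, Pdia6 and Pdia4 were -0.08 ± 0.09, -0.02 ± 0.08 and -0.12 ± 0.05. Pdia4, another isomerase, had 118.1, 112.4 and 106.8 CPM in HIF2aM3 animals, against 120.7, 121.8 and 124.7 CPM in WT animals, which did not overlap but did not pass the test (edgeR adjusted p = 0.216). The 2 lectins had a median of -0.06 and the 4 isomerases of 0.02.

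**Figure D3:**
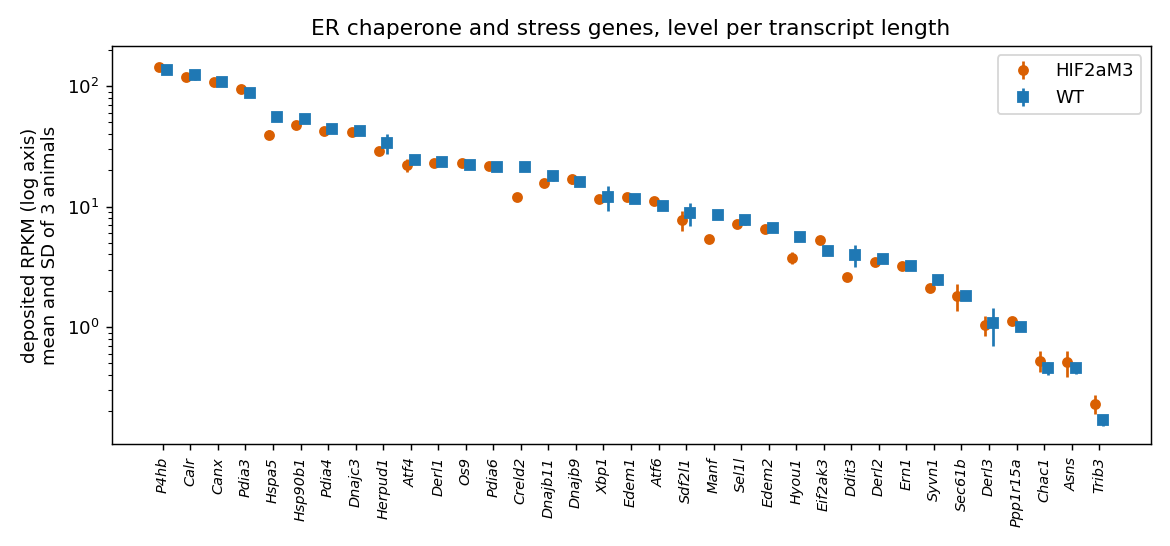
Deposited RPKM of the 35 genes on a log axis, mean and SD of 3 animals, ordered by the WT mean, with HIF2aM3 as circles (left of each pair) and WT as squares. The genes run from P4hb (145.1 in HIF2aM3, 135.9 in WT) to Trib3 (0.231 in HIF2aM3, 0.168 in WT), and the pairs that stand apart include Hspa5 (39.6 in HIF2aM3, 55.2 in WT) and Creld2 (12 in HIF2aM3, 21.3 in WT).

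The fallen genes were not the highest of the group. In RPKM, Hspa5 was at 39.6 ± 3.53 in HIF2aM3 and 55.2 ± 3.10 in WT animals, the fifth of 35 in WT. Creld2 was at 12 ± 0.762 in HIF2aM3 and 21.3 ± 1.23 in WT, Manf at 5.34 ± 0.356 and 8.53 ± 0.568 and Hyou1 at 3.77 ± 0.421 and 5.62 ± 0.215, HIF2aM3 before WT each time. The authors' RPKM had about 1 read added to each count, which lifts genes with few reads in the shallow library.

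None of the 9 degradation genes passed edgeR's test, 2 had an unadjusted p below 0.05 and DESeq2 called 0. The share of all genes with an unadjusted p below 0.05 is not given, so such counts, here and below, cannot be read as an excess. Over all genes DESeq2 called 2038, against 733 by edgeR, so its counts, here and below, stand beside a larger total. The median of the 9 degradation genes was -0.12, with 7 below 0. Herpud1, a membrane scaffold of the degradation complex, had 195.1, 187.6 and 181.8 CPM in HIF2aM3 animals, against 242.7, 242.4 and 175.4 CPM in WT animals. WT 3 lay below every HIF2aM3 animal while WT 1 and WT 2 lay above them all, and the log2 fold change was -0.23 ± 0.12 (edgeR adjusted p = 0.303). Syvn1, the ubiquitin ligase HRD1, had 55.5, 50.2 and 46.5 CPM in HIF2aM3 and 63.8, 59.5 and 54.7 CPM in WT animals, and its partner Sel1l had 162.5, 163.4 and 174.6 CPM in HIF2aM3 and 194.3, 161.6 and 198.9 CPM in WT animals. Both overlapped by a single WT animal, with log2 fold changes of -0.23 ± 0.08 and -0.15 ± 0.09.

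Derl2, a channel component of this pathway, had 46.4, 45.4 and 47.5 CPM in HIF2aM3 animals, against 51.1, 48.6 and 51.5 CPM in WT animals. It was the only uncalled member whose 12 single kidneys did not overlap between genotypes, and the difference was small (log2 fold change -0.12 ± 0.05, edgeR adjusted p = 0.185). It shares 231 of 8049 exon bases with Mis12 on the opposite strand, whose log2 fold change was -0.21. Derl1, Edem1, Edem2 and Os9, which act in substrate recognition and export, ran from -0.06 to 0.03. Derl3 had 517 reads over the 6 animals and a log2 fold change of -0.12 ± 0.29. Sec61b, a subunit of the channel through which proteins enter the ER, had a log2 fold change of -0.20 ± 0.13, with 1449 reads over the 6 animals.

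Of the sensors, Eif2ak3 (ENSMUSG00000031668), which encodes PERK, rose. It had 47.2, 47.9 and 51.9 CPM in HIF2aM3 animals, against 41.3, 38.0 and 40.0 CPM in WT animals. All HIF2aM3 values were above all WT values, as were all single kidneys, and 17-56, lowest for the fallen chaperones, was highest here. The log2 fold change was 0.30 ± 0.06 (edgeR adjusted p = 0.0412), a level of 1.23 times that of WT. This call was the least stable of the 5. With 1 animal left out it passed only without WT 2 (adjusted p = 0.0482). It was 0.0936 without WT 1, 0.0916 without WT 3, 0.0894 without 17-51, 0.13 without 17-53 and 0.0878 without 17-56. It was 0.0501 without WT 1 kidney 2, 0.051 without 17-51 kidney 1 and 0.0589 without 17-56 kidney 1, and the log2 fold change was 0.285 to 0.309 in those 3 fits.

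Atf6 had 88.9, 87.7 and 90 CPM in HIF2aM3 animals, against 86.1, 83 and 85.4 CPM in WT animals. The animals did not overlap, and the log2 fold change of 0.07 ± 0.05 did not pass the test (edgeR adjusted p = 0.398). Ern1 had 47.5, 46.5 and 49.4 CPM in HIF2aM3 animals, against 50.5, 47.6 and 47.8 CPM in WT animals, which overlapped (log2 fold change -0.02 ± 0.05, edgeR adjusted p = 0.806). With limma on the authors' RPKM its log2 fold change was 0.013, 0.010 and 0.005 at pseudocounts of 0.1, 1 and 5.

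The factors below the sensors did not pass the test. Xbp1 had 111.3, 119.5 and 109.1 CPM in HIF2aM3 animals, against 126.7, 138.6 and 91.1 CPM in WT animals. WT 3 was below every HIF2aM3 animal and the other WT animals were above, so the WT spread exceeded the difference (log2 fold change -0.07 ± 0.15, edgeR adjusted p = 0.811), and without WT 2 the log2 fold change was 0.05. The 2 kidneys of WT 3 agreed, with 91.7 and 91.0 CPM. Atf4 had 67.6, 84.2 and 72.0 CPM in HIF2aM3 animals, against 85.4, 86.3 and 79.2 CPM in WT animals, with 17-53 inside the WT range (log2 fold change -0.16 ± 0.09, edgeR adjusted p = 0.279).

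Ddit3, which encodes CHOP, a factor tied to cell death under lasting stress, had 8.0, 7.21 and 6.84 CPM in HIF2aM3 animals, against 12.2, 11.8 and 8.51 CPM in WT animals. The groups did not overlap, and WT 3 stood nearer to the HIF2aM3 animals than to the other WT animals. The log2 fold change of -0.56 ± 0.14, similar in size to that of Hspa5, did not pass the test (edgeR adjusted p = 0.0718). It passed without WT 3 (-0.72, adjusted p = 0.0398), without 17-51 kidney 1 (-0.68, adjusted p = 0.0494) and with DESeq2 (adjusted p = 0.00817). Ddit3 shares 68 of 1713 exon bases with Mars on the opposite strand, whose log2 fold change was 0.02.

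The 4 genes at the output of ATF4 had log2 fold changes above 0 with a median of 0.18. None passed edgeR's test, 1 had an unadjusted p below 0.05 and DESeq2 called 0. Trib3, a pseudokinase, had 1.45, 1.11 and 1.48 CPM in HIF2aM3 animals, against 1.03, 0.870 and 0.837 CPM in WT animals. The animals did not overlap, and the log2 fold change was 0.55 ± 0.19 (edgeR adjusted p = 0.133). Trib3 rested on 390 reads over the 6 animals, and the shallow library had 2 of them. Ppp1r15a, the GADD34 subunit that restores translation, had 13.1, 11.8 and 12.8 CPM in HIF2aM3 and 11.6, 11.7 and 10.6 CPM in WT animals (0.15 ± 0.08), and did not overlap. Asns, the asparagine synthetase, and Chac1, which degrades glutathione, overlapped, with log2 fold changes of 0.21 ± 0.15 and 0.15 ± 0.23.

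Set side by side, the branches differed in where their values lay, which was not tested. All 12 genes of the ATF6 list had log2 fold changes below 0, from -0.86 to -0.02 with a median of -0.22, and 4 fell. Of all 19564 genes tested, 9598 were below 0 and 1.82% fell. Pdia6 (-0.02 ± 0.08), Calr (-0.08 ± 0.09) and Derl3 (-0.12 ± 0.29) were nearer to 0 than their SE. Pdia6 was at 0.02 in the authors' deposited table. The median of the ATF6 list was -0.16 without 17-53 and -0.26 without WT 3. The 9 genes of the XBP1 list ran from -0.26 to 0.03 with a median of -0.08, 7 of them below 0, and none passed. Their median was -0.15 without WT 2. The 5 genes of the PERK and ATF4 list ran from -0.56 for Ddit3 to 0.55 for Trib3 with a median of 0.15, 4 of them above 0, and none passed. That median was 0.24 without WT 3 and 0.26 without 17-51. The 5 sensors and factors had a median of -0.02, which was 0.04 without WT 2, and the 4 genes assigned to no branch of 0.04. With edgeR, 3 genes of the XBP1 list and 2 of the PERK and ATF4 list had an unadjusted p below 0.05, and with DESeq2 none of the XBP1 list and 1 of the other, Ddit3, passed. The lists follow general knowledge of the pathway but were chosen with earlier results of these data known. The differences between them are thus a description and give no independent support. Many of the genes answer to more than 1 branch.

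**Figure D4:**
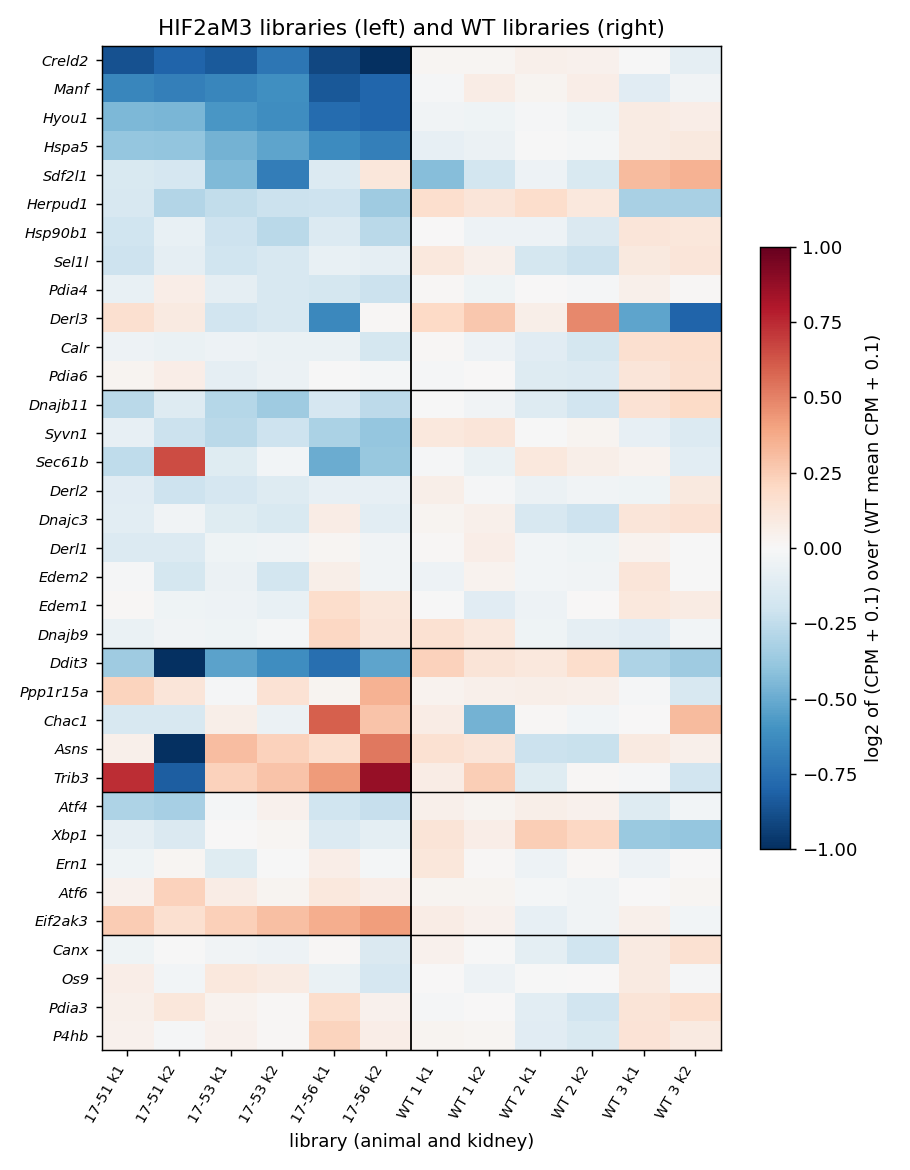
Log2 of (CPM + 0.1) over (mean WT CPM + 0.1) for the 35 genes (rows) in the 6 HIF2aM3 libraries (left of the line) and the 6 WT libraries (right), with horizontal lines between the ATF6, XBP1, PERK and ATF4, sensor and factor, and unassigned genes; colours saturate at -1 and 1. Creld2, Manf, Hyou1 and Hspa5 are blue in all 6 HIF2aM3 libraries, and WT 3 stands apart from the other WT animals for Herpud1, Derl3, Ddit3 and Xbp1.

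The animals of a genotype did not move as a block. In HIF2aM3, 17-51 was the lowest animal for 7 of the 35 genes, 17-53 for 14 and 17-56 for 14, while 17-56 was also the highest for 17. All 4 fallen genes were lowest in 17-56. In WT, animal 1 was lowest for 8, animal 2 for 16 and animal 3 for 11, and animal 3 was highest for 18. These are 22.9%, 45.7% and 31.4% lowest and 51.4% highest, beside 30.4%, 36.5%, 33.1% and 30.3% over all genes tested. The kidneys of an animal differed little. The median absolute log2 ratio of kidney 1 to kidney 2 over the members was 0.067, 0.044 and 0.092 in 17-51, 17-53 and 17-56 and 0.05, 0.038 and 0.047 in WT 1, 2 and 3. In all 6 animals it was below that over all genes tested, which was 0.074 to 0.147.

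The ERSE stood in the windows of 9 of the 31 matched members, namely Hspa5, Creld2, Calr, Canx, Hsp90b1, Pdia6, Dnajc3, Derl3 and Syvn1, with a pair of matches in Hsp90b1. Over all 27025 genes with a window, 37 or 0.137% held it. The shorter ERSE-II, ATTGG and CCACG with any 1 base between them, was found for Herpud1 and, past the start, for Dnajb11, against 0.0444% of all genes. The UPRE, TGACGTGG, was found for none of the members and for 0.714% of all genes. The CARE, TGATG and AA with any 1 base between them, to which ATF4 binds, stood in the windows of Asns, Chac1, Trib3 and Herpud1, against 4.51% of all genes. The hypoxia response core ACGTG, which also lies inside the UPRE, was found for 13 members and for 21.8% of all genes. A match of letters is a description and shows no binding.

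Genes that passed and genes that did not held an ERSE. The 9 members with it had log2 fold changes from -0.86 to -0.02 with a median of -0.12, all below 0 in the edgeR fit. Of these 9, 2 fell, and Pdia6 was at 0.02 in the authors' deposited table. The 22 matched members without it had a median of -0.03, 12 below 0 and 10 above, and 1 of them, Eif2ak3, passed, as higher. Manf and Hyou1, which also fell, had no window and are in neither group. The sequences printed above show the same pair of blocks in Hspa5 and Creld2, which fell, and in Calr (log2 fold change -0.08) and Canx (-0.04), which did not pass. The 4 members with a CARE had a median of 0.18.

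**Figure D5:**
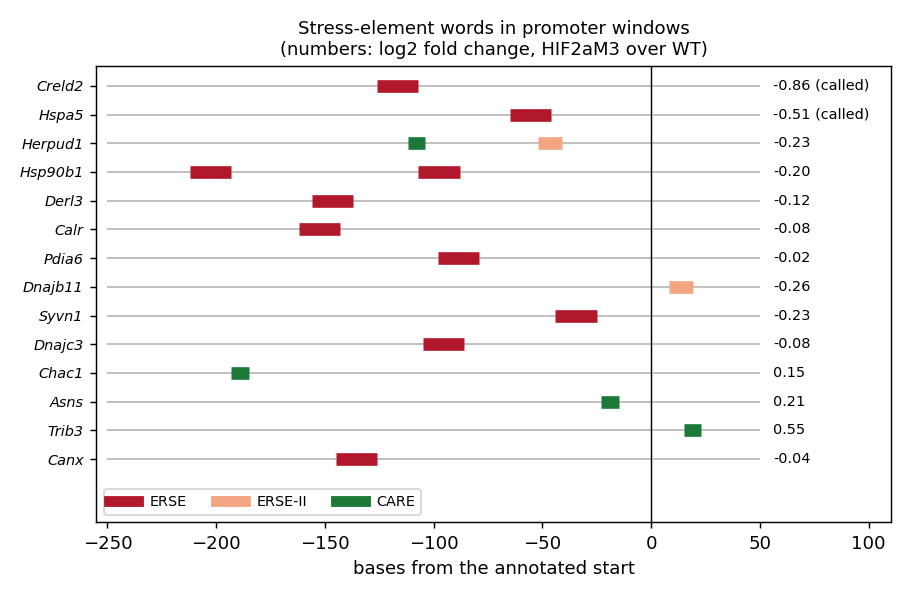
Positions of ERSE, ERSE-II and CARE letters in the promoter windows of 14 genes, in bases from the annotated start (250 before to 50 after), with each gene's log2 fold change (HIF2aM3 over WT) at the right. The element of Hspa5 begins 65 and that of Creld2 126 bases before the start, and the genes with an ERSE include some near 0, such as Canx (-0.04).

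The ERSE of Creld2 also lies in the window of Alg12, a mannosyltransferase that builds the sugar chain attached to ER proteins. The starts of Alg12 (chr15:88819318, - strand, GRCm38.p6) and Creld2 (chr15:88819646, + strand) face away from each other with 327 bases between them. Alg12 was not on any list and was looked at after this was seen. It had 12.2, 12.1 and 11.3 CPM in HIF2aM3 animals, against 16.9, 15 and 15.1 CPM in WT animals. Its animals did not overlap, and it fell by 0.40 ± 0.07 on the log2 scale (edgeR adjusted p = 0.0365), beside -0.86 for Creld2. With 1 animal left out Alg12 passed only without WT 2 (adjusted p = 0.028), and its adjusted p was up to 0.129, without 17-53. Among all genes outside the group with an ERSE, 12 of 28 were tested, with a median of -0.08 and 8 below 0, and 2 passed, Alg12 and the acyltransferase gene Acnat2 (-1.01 ± 0.11, edgeR adjusted p = 0.0143).

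Of 124 other genes of ER folding, translocation, sugar trimming, degradation, sensor processing and the integrated stress response, 121 were tested, 1 rose, 4 fell and 116 did not pass, with a median of 0.00, beside 3.75% passing over all genes tested. An unadjusted p was below 0.05 for 34, a count with no share over all genes to set beside it here. The animals did not overlap for 47, beside 32.0% over all genes tested. Wfs1, an ER membrane protein that restrains ATF6, had 22.0, 22.7 and 22.0 CPM in HIF2aM3 animals, against 27.3, 28.3 and 26.8 CPM in WT animals, without overlap (log2 fold change -0.30 ± 0.05, edgeR adjusted p = 0.0302). Ero1lb, an oxidase that recharges disulfide isomerases, had 5.85, 6.09 and 6.66 CPM in HIF2aM3 animals, against 8.91, 8.44 and 8.42 CPM in WT animals (-0.47 ± 0.08, edgeR adjusted p = 0.0337). Both were lower in every HIF2aM3 animal than in any WT animal.

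Serpinh1, the collagen chaperone HSP47, had 71.1, 67.7 and 74.9 CPM in HIF2aM3 animals, against 87.9, 90.8 and 86.2 CPM in WT animals (-0.31 ± 0.06, edgeR adjusted p = 0.0343). Its animals did not overlap. Srprb, a subunit of the signal recognition particle receptor, fell to 33.1 ± 0.856 CPM in HIF2aM3, against 39.6 ± 1.81 CPM in WT animals (SD, n = 3 each; -0.26 ± 0.05, edgeR adjusted p = 0.0467), and shares 888 of 4287 exon bases with Gm20425 on the same strand. Crebrf, which regulates the ER stress factor CREB3, rose, with 115.3, 126.8 and 136.6 CPM in HIF2aM3 animals, against 94.0, 76.7 and 93.9 CPM in WT animals (0.52 ± 0.10, edgeR adjusted p = 0.0386). With any animal other than WT 2 left out, 0 of these genes passed edgeR's test, and 27 to 33 had an unadjusted p below 0.05. DESeq2 on all 6 animals called 14 of these genes, beside 2038 over all genes, so its count is not set against the edgeR share of 3.75%.

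Of the 35 other genes of the integrated stress response none passed edgeR's test, with a median of 0.02, 10 unadjusted p below 0.05 and 3 calls by DESeq2. They ran from -1.01 ± 0.24 for Psat1 (edgeR adjusted p = 0.0685) to 0.76 ± 0.26 for Phgdh (edgeR adjusted p = 0.129). Above 0 were 18 and below 0 were 17. None of the 17 other degradation genes passed (3 unadjusted p below 0.05, 1 call by DESeq2), nor did any of the 10 of the lectin cycle (1 and 0). The 24 folding genes held 2 falls, the 22 translocation genes 1 and the 13 sensor-processing genes 1 rise and 1 fall.

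Markers of other cell types were read beside these values. The summed CPM of 8 plasma and B cell markers was 146.2 to 282.0 in HIF2aM3 animals, against 20.7 to 105.4 in WT animals, without overlap. All 7 tested markers had log2 fold changes above 0 and 1 of them, Prdm1, rose. With edgeR 6 had an unadjusted p below 0.05, and DESeq2 called 3, beside 2038 over all genes. Jchain made up most of that sum, and the B cell marker Cd79a was at 0.827 to 1.94 CPM in HIF2aM3 and 0.248 to 0.780 CPM in WT animals. Fibroblast markers summed to 184.9 to 298.1 CPM in HIF2aM3 and 100 to 207.6 CPM in WT animals, overlapping, with all 6 above 0. None of them passed edgeR's test, 3 had an unadjusted p below 0.05 and DESeq2 called 2. Hepatocyte markers summed to 44.0 to 48.3 CPM in HIF2aM3 and 47.9 to 78.3 CPM in WT animals, with a single Cps1 read over the 6 animals. Of the 6 tested, Apoh fell (log2 fold change -0.57 ± 0.07, edgeR adjusted p = 0.0167), the other 5 did not pass, and DESeq2 called 3. The part of these cells in the results was not tested.

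In the authors' deposited table, 9 of the 35 genes had a q-value below 0.05 in the authors' test on libraries, beside 12.6% of the 27412 genes. That test compared 6 libraries of each genotype, so both kidneys of an animal counted as replicates. Its q-values, given here, thus do not measure the spread between animals. The authors' Fisher exact q-values, by which P4hb and Calr among others were also below 0.05, were not used. In the authors' deposited table the log2 fold change and q-value were -0.83 and 4.8e-05 for Creld2, -0.68 and 0.000205 for Manf, -0.57 and 0.000651 for Hyou1, -0.48 and 0.00117 for Hspa5 and 0.32 and 0.00239 for Eif2ak3. Ddit3, Hsp90b1, Derl2 and Syvn1 were the other 4 in the authors' deposited table.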

How the data were processed

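The animal was the replicate, since the labels give each animal 2 kidneys. The authors deposited unscaled counts of reads for each gene and library, per the file headers. The authors' RPKM had about 1 read added per count, a property read from the values. The authors' log2 fold change and q-value columns were deposited beside them and served for comparison only. The submitters' processing notes name build mm9. Aligner, counter, annotation and use of strand: not given in the sources used here. Symbols came from GENCODE M21 (24630 of 27412 IDs), which is on another build and served for names and overlaps only.

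Counts of an animal's kidneys were added. The genotype test was edgeR's quasi-likelihood F-test (version 4.0.16, R 4.3.3), two-sided and robust, after filterByExpr and TMM scaling, adjusted by Benjamini-Hochberg over the 19564 genes tested. SE is the size of the log2 fold change divided by the root of F. P-values measure the spread between these 3 animals a genotype. The members, branch lists and marker lists were chosen with earlier results of these data known. Named in full were the called members, Hspa5, the sensors and main factors, the largest change of each branch, and the called genes of the wider pathway. Protein sequences were not used here.

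Alternatives were DESeq2 1.42.0, RLE factors, library size alone, 2 other count filters, limma 3.58.1 on log2 of RPKM plus 0.1, 1 or 5, single kidneys, 12 libraries as replicates, and each animal left out. The shallow library was also left out. Leaving out each other library, leaving out the shallow one with 17-56 kidney 2, and list medians without the shallow one were added after the data were seen. Tested on simulated data with 19564 genes, the genotype fit recovered 6% of genes changed by 0.25, 44% by 0.5 and 100% by 1 (log2), with 4 false calls. No pair of libraries agreed within counting noise (smallest chi-square per degree of freedom 1.72). Counting error alone is small for the called members, at 9035 reads or more over the 6 animals.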

Additional observations from a re-analysis of the deposited data

Results flagged for a closer look

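In 4 of 70 sets of 6 libraries (35 genes in each genotype) 1 library lay apart, its gap to the nearest over the whole range being above Dixon's critical value. Chance alone gives about 1 in 20 sets, and the kidneys of an animal are not independent. Calr was at 569.8 CPM in kidney 2 of 17-56, against 614.7 to 623.5 CPM in the other HIF2aM3 libraries. P4hb was at 715.7 CPM in kidney 1 of 17-56, against 610.0 to 642.9 CPM in the others. Sec61b was at 6.84 CPM in the shallow library, from 29 reads, against 3.04 to 4.24 CPM in the other HIF2aM3 libraries. Os9 was at 210.3 CPM in kidney 1 of WT 3, against 190.9 to 198.0 CPM in the other WT libraries. None of these 4 genes passed the genotype test.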

How the results depend on the processing

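Of 5 called members, DESeq2 kept 5 and called 6. The 12 libraries taken as replicates called 10, and limma on RPKM called 2 (Creld2 and Manf) at each of the 3 pseudocounts. With an animal or library left out the count ran from 1 to 6. Over the 30 alternatives Creld2 passed in 30, Manf in 29, Hyou1 in 24, Hspa5 in 22 and Eif2ak3 in 17, each with its sign kept. Of 510 values of 17 named genes, 4 turned sign: Ern1 with limma (0.013, 0.010 and 0.005) and Xbp1 without WT 2 (0.051, in a range from -0.233 with another animal or library left out). All genes called were 733, against 2038 with DESeq2, 164, 125 and 72 with limma at pseudocounts of 0.1, 1 and 5, 337 with kidney 2 only and 4829 with 12 libraries. With an animal or library left out they ran from 11 (without 17-53) to 1549 (without WT 2). Other pathway genes called were 5, against 14 with DESeq2, 2 with library size alone, 1, 0 and 0 with limma, 1 with kidney 2 only and 38 with 12 libraries. With an animal or library left out they ran from 0 to 11, with 1 without WT 3 kidney 1 and 3 without 17-56 kidney 1. The cause of these shifts was not tested, beyond fewer animals in the fits that leave one out and kidneys counted as replicates in the 12 libraries. No paired analysis was possible because the genotypes share no animal number or litter in the labels. In the simulation with 3 animals a genotype, changes of 0.25 on the log2 scale were mostly not detected. In these data Srprb passed at -0.26 ± 0.05, so this depends on the spread of a gene. Trib3, Chac1 and Derl3 rested on few reads.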
